A study of Mus musculus with 5 samples.

Results

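Sgk1, its paralog Sgk3, the glucocorticoid receptor gene Nr3c1, the receptor's target genes Tsc22d3, Fkbp5, Zbtb16 and Ddit4, and the FOXO transcription factor genes Foxo1 and Foxo3 were examined in Langerhans cells, phagocytes that reside in the epidermis and sample it for antigen. These 9 genes were found by symbol among the 27179 gene identifiers counted in the series. Sgk1 was picked because its level in every Suz12 cKO library lay above that in both wild type libraries. That difference is therefore described without a test, and the other 8 genes were picked by name to stand beside it.

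Of the 5 libraries, 3 came from mice labelled Suz12 cKO, a conditional knockout, and 2 from mice labelled wild type, all C57BL/6, aged 1 week, with no treatment named in the labels. The protein SUZ12 belongs to the core of Polycomb repressive complex 2, which methylates histone H3. The Cre line that deletes Suz12 is not given in the sources used here, and the labels call the libraries biological replicates without saying whether animals were pooled. Polyadenylated RNA was taken from 5000 purified skin Langerhans cells per library, although the source label of every library reads alveolar macrophage.

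Between 12090062 and 25725900 counts were assigned to genes per library. Levels are given as CPM, the count per 1e+06 counts of the library, after TMM scaling, which corrects for library composition. Cd207, which encodes the Langerhans cell lectin langerin, lay between 6639 and 14596 CPM, while 3 of 6 alveolar macrophage markers (Chil3, Siglecf, Car4) were at 0 counts throughout. Among the remaining 3, Ear2 lay at 70.7, 63.8 and 250.4 CPM in cKO, against 466 and 122 CPM in wild type. Marco had no count in cKO, against 864 and 2 counts in wild type, and Fabp4 had 168 counts in wild type replicate 2 alone. Suz12 had 0, 0 and 7 counts in the cKO libraries, against 88 and 39 counts in the wild type libraries, which is the direction of the labels. Between genotypes, edgeR's quasi-likelihood test, at an adjusted p of 0.05, called 0 genes of the 9988 tested (0%), 415 had an unadjusted p under 0.05 (4.15%), and DESeq2 called 191 (1.91%).

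Glucocorticoid hormones enter the cell and bind the receptor encoded by Nr3c1, which is held ready by HSP90 and its co-chaperones, moves to the nucleus and binds DNA at glucocorticoid response elements. SGK1 is a kinase related to AKT. It is activated through PDK1 and mTOR complex 2, its transcription is induced by glucocorticoids and by serum, and it phosphorylates FOXO3 and the NDRG proteins. In skin, topical glucocorticoids are known to lower the number of Langerhans cells.

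Promoter windows of 300 bases (250 before and 50 after each annotated start site) were taken from RefSeq on GRCm38.p6, the build of mm10. Windows were matched for 6 of the 9 genes, 13 windows in all, with 6 for Sgk1 and 3 for Tsc22d3. They were searched for the glucocorticoid response element in the form of the half-sites GNACA and TGTNC with 3 bases of any kind between them (N is any base). This pattern is its own reverse complement, so it reads alike on both strands. The element was found in 1 of the 13 windows, against 156 of all 32851 windows (0.475%). The window that holds it belongs to Sgk1 and is shown because it carries the only match among these genes, with the element in capitals, on the plus strand at chr10:21993640-21993939.

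Sgk1: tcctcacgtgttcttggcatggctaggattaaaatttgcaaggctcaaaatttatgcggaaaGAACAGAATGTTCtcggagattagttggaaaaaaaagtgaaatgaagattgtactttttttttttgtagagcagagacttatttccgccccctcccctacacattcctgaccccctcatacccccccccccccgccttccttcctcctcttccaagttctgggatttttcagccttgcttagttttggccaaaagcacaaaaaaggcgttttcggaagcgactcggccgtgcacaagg

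The element spans bases 21993702 to 21993714 of chromosome 10. It begins 188 bases before the start site of that window and ends 952 bases before the last of the annotated Sgk1 start sites. Among 22 other genes known as glucocorticoid-induced, described further on, 19 had a window and 3 had the element. Counted by gene, 145 of all 27025 genes with a window had it. Their elements are set beside that of Sgk1 to show the letters they share. The windows are chr8:94178839-94179138 (plus strand) for Mt1, chr14:8309730-8310029 (minus strand) for Fam107a and chr3:96557707-96558006 (plus strand) for Txnip.

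Sgk1: GAACAGAATGTTC

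Mt1: GGACATGATGTTC

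Fam107a: GGACATGGTGTTC

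Txnip: GCACACCGTGTCC

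The FOXO motif GTAAACA, read on both strands, was in none of the 13 windows, so it does not overlap the element shown, and in 1199 of all 32851 (3.65%). A match is a stretch of letters and no measure of binding, and no match speaks for these windows alone. The windows also differed in their CpG content, which is given as the observed count of CG over that expected from the bases. It was 1.10 for Foxo1, 0.872 for Fkbp5, 0.834 for Foxo3 and 0.761 for Ddit4, against a median of 0.384 over all windows. The 6 Sgk1 windows ranged from 0.206 to 0.770, and the 3 Tsc22d3 windows from 0.169 to 0.710.

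Sgk1 (chromosome 10, 21882184 to 21999903, mm10) had 3131, 7005 and 2758 counts in cKO replicates 1 to 3, against 1152 and 1423 counts in wild type replicates 1 and 2. These were 195.9, 248.0 and 236.8 CPM in cKO, against 61.0 and 83.9 CPM in wild type. The lowest cKO library stood well above the higher wild type library, and the 3 cKO libraries lay close to each other, the highest 1.27 times the lowest. The mean was 227 ± 27.4 CPM in cKO and 72.4 ± 16.2 CPM in wild type (SD, n = 3 and n = 2), a ratio of 3.13. The fitted log2 fold change, cKO minus wild type, was 1.65, and its standard error (SE) 0.37. Leaving out each library in turn gave log2 fold changes of 1.44 to 1.90. Since Sgk1 was chosen for this separation, leaving out a library could not turn its direction.

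The sample titles are written in either of 2 styles, LC or Langerhans-cell, and nothing in the labels says what the styles stand for. Among the LC titles Sgk1 averaged 222 CPM in cKO and lay at 61.0 CPM in wild type, a ratio of 3.64. Among the Langerhans-cell titles, with 1 library per genotype, it lay at 237 CPM in cKO and 83.9 CPM in wild type, a ratio of 2.82. Both ratios were bound to lie above 1 by the way Sgk1 was chosen.

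Sgk3 (chromosome 1, 9798130 to 9902570) encodes a second kinase of this family, which sits on endosomes through a lipid-binding domain. It lay at 67.5, 99.1 and 129 CPM in cKO, against 53.6 and 34.7 CPM in wild type. The groups did not overlap, but the gap between cKO replicate 1 and wild type replicate 1 was small. Over all tested genes, 8.87% had every cKO library above both wild type ones. The log2 fold change was 1.16 (SE 0.51) and did not reach the threshold (edgeR unadjusted p = 0.0606, adjusted p = 0.968). Leaving out wild type replicate 2 gave 0.88, and leaving out wild type replicate 1 gave 1.51. Within the title styles the ratio of cKO to wild type was 1.55 (LC) and 3.71 (Langerhans-cell). Sgk2, the remaining paralog, had no count in any library.

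**Figure D1:**
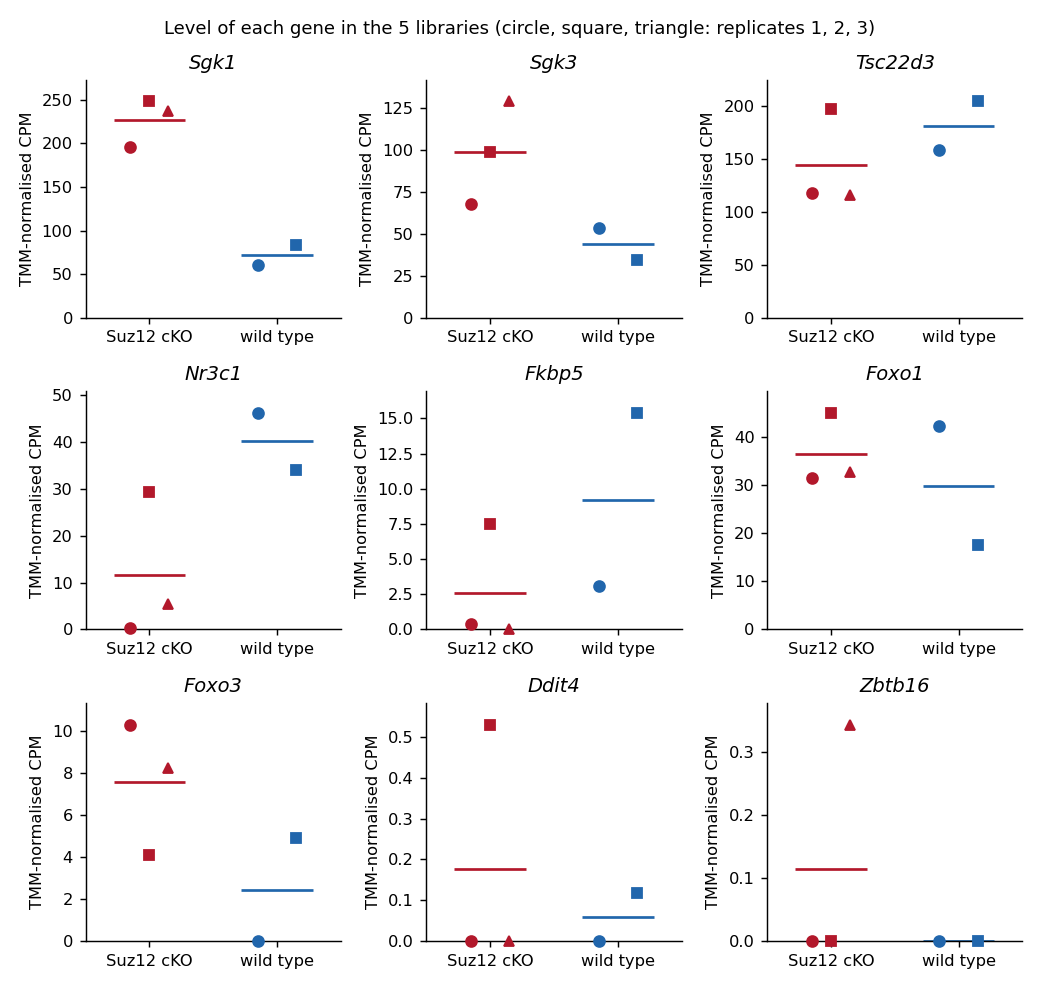
Each panel plots the TMM-normalised CPM (vertical axis, starting at 0) of 1 gene in the 3 Suz12 cKO libraries (left, red) and the 2 wild type libraries (right, blue), with a line at the group mean. Sgk1 and Sgk3 lay higher in all cKO libraries, Nr3c1 lay lower in all of them, and the other 6 genes overlapped between genotypes.

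The receptor gene did not share this pattern. Nr3c1 lay at 0.250, 29.3 and 5.49 CPM in cKO replicates 1 to 3, against 46.2 and 34.1 CPM in wild type. Every cKO library was under both wild type ones, an order seen for 10.2% of all tested genes. The cKO libraries differed widely from each other, the highest being 117 times the lowest. In cKO replicate 1 the level rested on 4 counts, with a 95% exact Poisson interval of 0.0682 to 0.641 CPM. The log2 fold change was -1.78 (SE 1.64; edgeR adjusted p = 0.999). It was -1.17 without cKO replicate 1 and -3.80 without cKO replicate 2. Nr3c2, which encodes the mineralocorticoid receptor, had no count in any library.

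Tsc22d3 encodes GILZ, a leucine zipper protein that mediates anti-inflammatory effects of glucocorticoids and is among the most widely used readouts of receptor activity. It lay at 118, 197 and 116 CPM in cKO, against 158 and 204 CPM in wild type. The groups overlapped, with cKO replicate 2 level with wild type and the other cKO libraries lower. The log2 fold change was -0.33 (SE 0.39; edgeR adjusted p = 0.999). It was -0.63 without cKO replicate 2 and -0.12 without wild type replicate 2.

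Fkbp5 encodes FKBP51, a co-chaperone of HSP90 that lowers the receptor's affinity for hormone and is itself induced by it. It had 6, 211 and 0 counts in the cKO libraries, against 58 and 261 counts in the wild type libraries. These were 0.375, 7.47 and 0 CPM in cKO, against 3.07 and 15.4 CPM in wild type. The spread within each genotype covered the difference between them. The log2 fold change of -1.81 had an SE of 2.91 (edgeR adjusted p = 0.999). It became -5.55 without cKO replicate 2 and -0.19 without wild type replicate 2.

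Zbtb16 and Ddit4 were scarcely detected. Zbtb16 encodes PLZF, a transcription factor strongly induced by glucocorticoids in many cells and a marker of innate-like T cells. It had 4 counts in cKO replicate 3 and none in the other 4 libraries, where 3 counts, the limit set for a count of 0, would be 0.106 to 0.188 CPM. Ddit4 encodes REDD1, an inhibitor of mTOR complex 1 induced by glucocorticoids, hypoxia and stress. It had 15 counts in cKO replicate 2, 2 counts in wild type replicate 2 and none elsewhere. The ratio of cKO to wild type over the summed counts was 4.81, with a counting interval of 1.12 to 43.4 that leaves out the spread between libraries. Neither gene passed the filter on low counts, so 7 of the 9 genes entered the fit.

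Foxo1 and Foxo3 encode forkhead factors that AKT and SGK kinases hold out of the nucleus. Foxo1 lay at 31.4, 44.9 and 32.7 CPM in cKO, against 42.2 and 17.5 CPM in wild type. The groups overlapped, and the log2 fold change of 0.28 (SE 0.78) turned to -0.21 without wild type replicate 2. Foxo3 lay at 10.3, 4.11 and 8.24 CPM in cKO, against 0 and 4.89 CPM in wild type. Its log2 fold change of 1.62 had an SE of 2.96 and was 0.63 without wild type replicate 1, the library with no count. Without wild type replicate 2, which leaves only that library, the fitted value was 10.13 and depends on the prior count. Both had an edgeR adjusted p of 0.999. Foxo6 had no count, and Foxo4 had 20 counts in cKO replicate 2 alone.

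With Sgk1 set aside, 0 of the 6 others in the fit were called by edgeR or by DESeq2, and 0 had an unadjusted p under 0.05. Their log2 fold changes were divided, 3 positive and 3 negative, with a median of -0.02, beside a median of 0.06 over all 9988 tested genes.

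Levels of different genes were compared per kilobase of counted exon, which does not allow for unequal use of isoforms. In cKO, Tsc22d3 averaged 57.7 CPM per kilobase and Sgk1 54.6, and their libraries overlapped. In wild type, Tsc22d3 averaged 72.7 CPM per kilobase and Sgk1 17.4, and their libraries did not overlap. Sgk3 came next, at 17.5 CPM per kilobase in cKO and 7.86 in wild type, apart from Sgk1 in both genotypes. Foxo1 averaged 6.55 CPM per kilobase in cKO and 5.37 in wild type, and Nr3c1 1.85 in cKO and 6.34 in wild type. Sgk3, Nr3c1 and Foxo1 overlapped one another in wild type, whereas in cKO they stood apart, with Sgk3 highest and Nr3c1 lowest. Foxo3 averaged 2.62 CPM per kilobase in cKO and 0.847 in wild type, and Fkbp5 0.781 in cKO and 2.76 in wild type. In both genotypes Foxo3 and Fkbp5 overlapped. The ratio of Sgk1 to Sgk3 per kilobase was 3.92, 3.38 and 2.48 in the cKO libraries, against 1.54 and 3.27 in the wild type libraries, so it overlapped between genotypes.

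Of the 4 other paralogs tested, 1, Tsc22d2, had every cKO library above both wild type ones (8.87% of all tested genes). Tsc22d1 lay at 82.3, 434 and 201 CPM in cKO, against 169 and 126 CPM in wild type, and leaving out cKO replicate 2 turned its log2 fold change from 0.70 to -0.06. Tsc22d2 lay at 12.6, 28.1 and 14.8 CPM in cKO, against 12.2 and 0.236 CPM in wild type. Although these groups did not overlap, cKO replicate 1 and wild type replicate 1 were nearly equal, and the log2 fold change of 1.57 became 0.61 when wild type replicate 2 was left out and 6.26 when wild type replicate 1 was. Tsc22d4 lay at 1.06, 19.9 and 2.58 CPM in cKO, against 31.2 and 2.36 CPM in wild type, and leaving out wild type replicate 1 turned its log2 fold change from -1.10 to 1.74. Fkbp4 encodes FKBP52, which favours hormone binding. It lay at 70.9, 109 and 48.9 CPM in cKO, against 87.6 and 103 CPM in wild type, with overlapping groups (edgeR adjusted p = 0.999 for each of the 4 genes).

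A further 22 genes known to be induced by glucocorticoids were listed, from metallothioneins to the clock gene Per1. Of these, 5 had no count in any library (Klf15, Rasd1, Tat, Lcn2 and Fam107a) and 16 were tested. By fitted direction 7 lay higher and 9 lower in cKO, and the median log2 fold change was -0.15, with none called by edgeR. An unadjusted edgeR p under 0.05 was reached by 3, Il1r2, Errfi1 and Txnip (4.15% of all tested genes). The genotypes were apart with cKO on the higher side for Il1r2 alone (8.87% of all tested genes), and on the lower side for Errfi1, Txnip and Arrdc2 (10.2%). DESeq2 called none of the 16.

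Il1r2 encodes the decoy receptor for interleukin 1. It lay at 14277, 5329 and 8701 CPM in cKO, against 4680 and 4494 CPM in wild type, with cKO replicate 1 the highest. The log2 fold change was 1.04 (SE 0.43; edgeR unadjusted p = 0.0476, adjusted p = 0.968), and 0.63 without cKO replicate 1. Nfkbia encodes the NF-kappa-B inhibitor and lay at 2129, 1692 and 2113 CPM in cKO, against 1484 and 1878 CPM in wild type. Cebpd, a transcription factor gene, lay at 88.7, 61.1 and 78.1 CPM in cKO, against 29.3 and 81.9 CPM in wild type. Both overlapped between genotypes, and the log2 fold change of Cebpd, 0.45, turned to -0.10 without wild type replicate 1.

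Errfi1, which encodes a feedback inhibitor of the EGF receptor, lay at 91.2, 137 and 128 CPM in cKO, against 251 and 209 CPM in wild type. Its log2 fold change was -0.95 (SE 0.35; edgeR unadjusted p = 0.0297, adjusted p = 0.968). Txnip encodes an inhibitor of thioredoxin and of glucose uptake, and lay at 47.2, 98.4 and 99.6 CPM in cKO, against 167 and 202 CPM in wild type. Its log2 fold change was -1.17 (SE 0.44; edgeR unadjusted p = 0.0340, adjusted p = 0.968). For both genes the wild type libraries stood apart on the high side, the side opposite to Sgk1. Arrdc2 had 31, 0 and 0 counts in cKO, against 142 and 74 counts in wild type. Mt1, a metallothionein gene whose window holds the element shown above, lay at 1036, 458 and 1070 CPM in cKO, against 668 and 777 CPM in wild type, with overlapping groups.

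**Figure D2:**
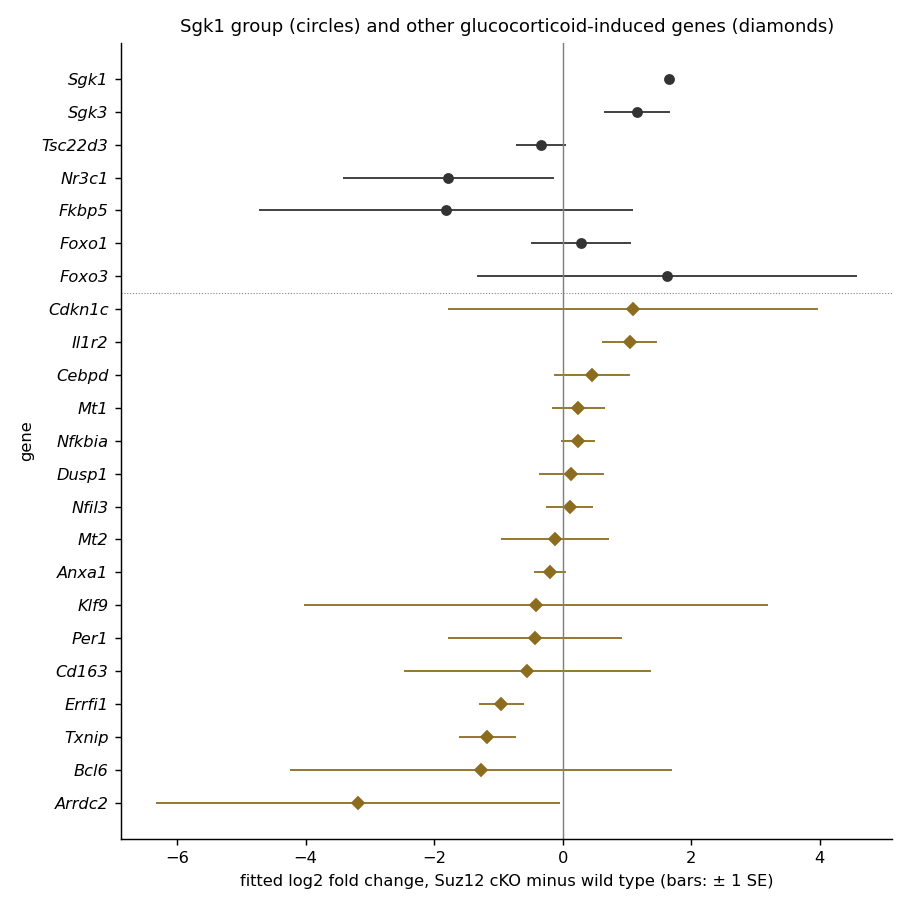
Fitted log2 fold changes, cKO minus wild type (horizontal axis), of the 7 tested genes of the Sgk1 group (circles) and the 16 tested genes of the list of other glucocorticoid-induced genes (diamonds), with bars of 1 SE, left off for Sgk1, which was chosen on this contrast. The values spread to both sides of 0, from -3.19 for Arrdc2 to 1.65 for Sgk1, and no gene with a bar passed the test over all genes.

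Of 14 genes for chaperones, coregulators and enzymes that act with the receptor, 11 were tested, 7 on the higher side and 4 on the lower, the median log2 fold change being 0.19. edgeR and DESeq2 called none, and Hsp90ab1 alone had an unadjusted edgeR p under 0.05 (4.15% of all tested genes). No gene had every cKO library above both wild type ones (8.87% of all tested genes). Hsp90ab1 and Ncor1, 2 of the 11, had every one below (10.2%). Hsp90ab1, which encodes the HSP90 isoform made constitutively, lay at 452, 428 and 465 CPM in cKO, against 690 and 735 CPM in wild type. The groups were narrow and did not overlap, and the log2 fold change was -0.67 (SE 0.25; edgeR unadjusted p = 0.0341, adjusted p = 0.968). Hsp90aa1, another HSP90 gene of this list, overlapped between genotypes. It lay at 328, 174 and 414 CPM in cKO, against 314 and 257 CPM in wild type. Ncoa2, a coactivator gene, had 580, 409 and 0 counts in cKO, against 0 and 21 counts in wild type. Hsd11b1, which encodes the enzyme that regenerates active glucocorticoid inside cells, had no count in any library, and neither had Hsd11b2.

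Genes that activate SGK kinases or are acted on by them numbered 18, among them Foxo3, and 16 were tested. In cKO 12 lay higher and 4 lower, beside 5246 higher and 4742 lower over all 9988 tested genes. The median log2 fold change was 0.90, beside 0.06 over all tested genes. Several of these genes, on both sides, had no count in some libraries, and their fold changes had large SEs. edgeR and DESeq2 called none, and 1, Ndrg1, had an unadjusted edgeR p under 0.05 (4.15% of all tested genes). Ndrg1, whose product is a standard substrate for reading SGK1 activity, lay at 1025, 919 and 708 CPM in cKO, against 531 and 421 CPM in wild type. All cKO libraries lay higher, and the log2 fold change was 0.89 (SE 0.30; edgeR unadjusted p = 0.0222, adjusted p = 0.968). These are RNA levels of Ndrg1, and the kinase acts on the protein. Akt1, which encodes a kinase related to SGK1, lay at 95.9, 291 and 124 CPM in cKO, against 68.2 and 85.4 CPM in wild type. Akt2 lay at 29.1, 28.9 and 43.7 CPM in cKO, against 1.69 and 24.8 CPM in wild type. In both, every cKO library was above both wild type ones, so the groups were apart in that direction for 3 of 16 genes, beside 8.87% of all tested genes.

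Of 20 genes known as FOXO targets, 17 were tested, 9 on the higher side and 8 on the lower, the median log2 fold change being 0.18. edgeR called none, and 2, Txnip and Fbxo32, had an unadjusted edgeR p under 0.05 (4.15% of all tested genes). Every cKO library was above both wild type ones for 1 gene, Cdkn1b (8.87% of all tested genes), and below both for 3, Txnip, Fbxo32 and Sod2 (10.2%). Il7r, which encodes a chain of the interleukin 7 receptor, lay at 257, 207 and 80.5 CPM in cKO, against 110 and 48.2 CPM in wild type, with overlapping groups. Fbxo32, which encodes the ubiquitin ligase atrogin-1, had no count in any cKO library, against 400 and 231 counts in the wild type libraries. By counting error alone it was at least 328-fold lower in cKO, with the limit of 3 counts set over the group. This bound leaves out the spread between libraries. edgeR did not call it (unadjusted p = 0.0212, adjusted p = 0.968), while DESeq2 did (adjusted p = 0.00952). Txnip, Bcl6 and Pdk4 stand in this list and in that of glucocorticoid-induced genes.

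Genes with a profile near that of Sgk1 were sought among the 2669 other tested genes whose mean reached 50 CPM. Likeness was the root mean square difference over the 5 libraries between log2(CPM + 1) values, each centred on the gene's mean. The 5 nearest were Antxr2 (0.143), Serpinb9 (0.175), Ncaph2 (0.186), Ubxn6 (0.206) and Tnfrsf1b (0.246). They were chosen for likeness to a gene that was itself chosen for its separation of the genotypes, so their own separation is no further evidence. Antxr2, an anthrax toxin receptor gene, lay at 127, 164 and 135 CPM in cKO, against 43.1 and 45.2 CPM in wild type. Serpinb9 encodes an inhibitor of granzyme B, Ncaph2 a subunit of condensin II and Ubxn6 a cofactor of the ATPase p97. Tnfrsf1b, which encodes TNF receptor 2, lay at 135, 253 and 237 CPM in cKO, against 70.1 and 83.7 CPM in wild type. By the same measure Sgk3 ranked 53 of 2669 (0.472) and Tsc22d3 ranked 1480 (1.01). The other 6 genes are not in this ranking, because they lay below 50 CPM on average.

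**Figure D3:**
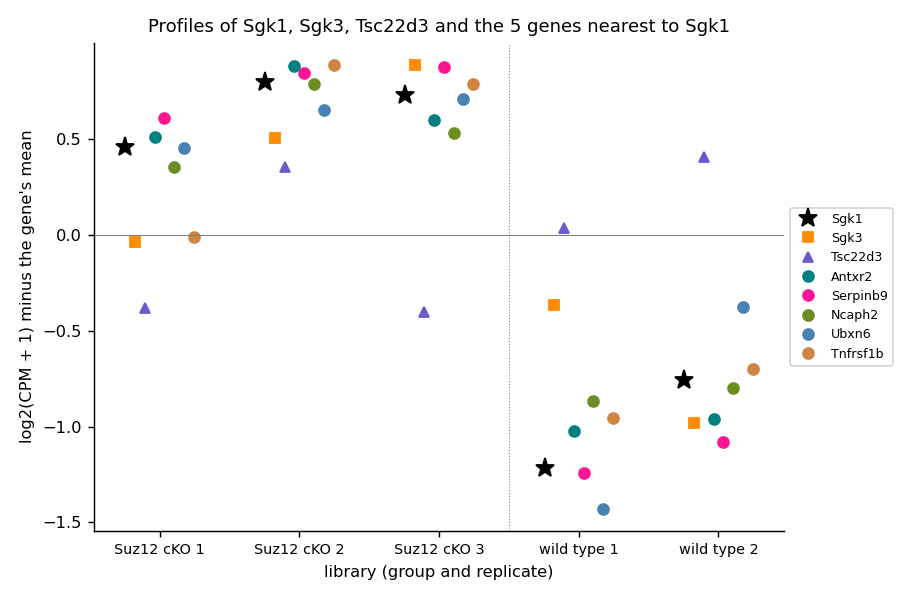
Points give log2(CPM + 1) minus each gene's own mean (vertical axis) in the 3 Suz12 cKO libraries (left of the dotted line) and the 2 wild type libraries (right), for Sgk1 (star), Sgk3 (square), Tsc22d3 (triangle) and the 5 genes nearest to Sgk1 (circles). Sgk1 and its 5 neighbours lie below their means in both wild type libraries, while Tsc22d3 lies above its mean there and in cKO replicate 2.

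Summed marker transcripts of some other cell types were ordered by genotype in the same way as some of these genes. In bulk RNA, fewer cells of a type and less RNA per cell cannot be told apart. All 10 keratinocyte markers had counts, and they summed to 586, 973 and 823 CPM in cKO, against 267 and 585 CPM in wild type. All cKO sums lay higher, as for Sgk1, Sgk3, Ndrg1 and Il1r2. In these sums cKO replicate 1 and wild type replicate 2 were nearly equal (586.2 and 584.6 CPM). Of the 8 keratinocyte markers tested, all had a positive log2 fold change, beside 5246 of all 9988 tested genes. Krt10, Krtdap, Perp and Sfn had every cKO library above both wild type ones (8.87% of all tested genes). The other tested markers overlapped between genotypes, among them Krt14 with a log2 fold change of 0.02. The part of these transcripts in the values of Sgk1, Sgk3, Ndrg1 and Il1r2 was not tested.

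All 10 dermal macrophage and monocyte markers had counts too, and they summed to 1006, 1513 and 1266 CPM in cKO, against 3465 and 2059 CPM in wild type. All 10 were tested and had a negative log2 fold change, beside 4742 of all 9988 tested genes. Every cKO library was below both wild type ones for 5, C1qb, C1qc, Mrc1, Ms4a7 and Lyz2 (10.2% of all tested genes). DESeq2 called 2 of the 10 lower in cKO, Ms4a7 (adjusted p = 0.0301) and Lyz2 (adjusted p = 0.00396). Over all tested genes it called 1.91% in either direction. edgeR called none. The sum of the list was lower in every cKO library, as Nr3c1, Errfi1, Txnip and Hsp90ab1 did, and its part in those values was not tested. The 14 T and innate lymphoid cell markers, all with counts, summed to 984, 455 and 291 CPM in cKO, against 705 and 488 CPM in wild type, and overlapped. The 15 genes of the response to tissue dissociation, among them Fos and Egr1, summed to 3610, 7439 and 4588 CPM in cKO, against 5331 and 4240 CPM in wild type, and overlapped as well. Melanocyte markers summed to 49.7, 32.7 and 143 CPM in cKO, against 39.6 and 429 CPM in wild type, and fibroblast and endothelial markers to 9.76, 46.8 and 211 CPM in cKO, against 21.2 and 109 CPM in wild type. Of 6 mast cell markers 5 had no count in any library.

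**Figure D4:**
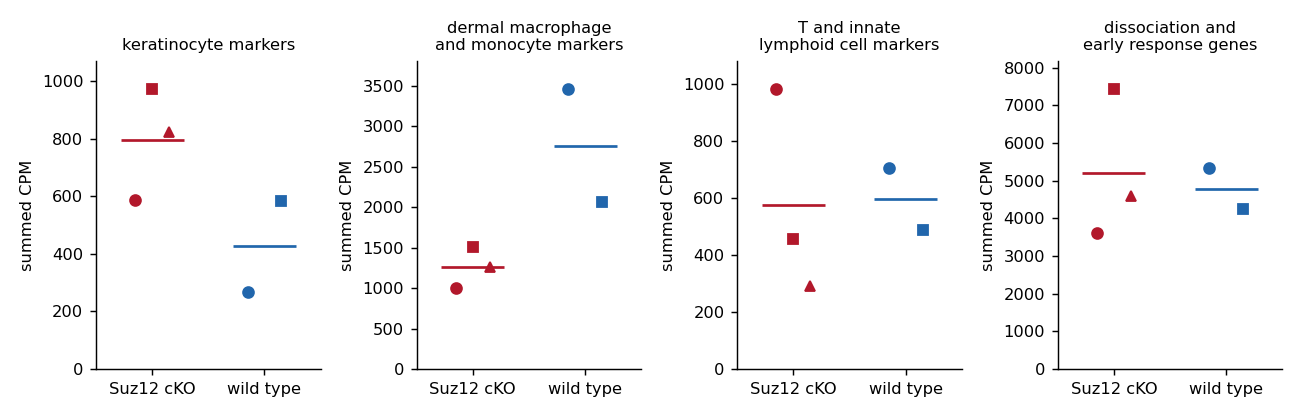
Summed CPM (vertical axis, starting at 0) of 4 gene lists in the 3 Suz12 cKO libraries (left, red) and the 2 wild type libraries (right, blue), with a line at the group mean. Keratinocyte sums were 586 to 973 CPM in cKO and 267 to 585 CPM in wild type, macrophage and monocyte sums were lower in all cKO libraries, and the other lists overlapped.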

How the data were processed

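The authors deposited raw counts per gene for 5 libraries, counted by featureCounts against mm10 (from the submitters' processing notes, which give no aligner, version or use of strand), so genes with close paralogs or antisense neighbours are uncertain. Gene lengths in bases came from the deposited table. Of 27179 identifiers, 25275 matched a RefSeq symbol (GRCm38.p6), and the 5 files per sample held the same counts as the series table. Libraries of a group differed by more than counting noise (chi-square per degree of freedom of 161 to 376).

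Genotypes were compared in edgeR 4.0.16 under R 4.3.3, on all genes passing filterByExpr (minimum count 10), with TMM factors, the robust quasi-likelihood F test on genotype and Benjamini-Hochberg adjustment over all 9988 genes tested, with a threshold of 0.05. Standard errors are the log2 fold change divided by the square root of F. Intervals on counts are 95% exact ones and, like the floor of 3 counts, cover counting error only. Alternatives were DESeq2 1.42.0, RLE factors, every gene with a count, a stricter minimum count (50), limma-voom in limma 3.58.1, a replicate block, title style as a term and each library left out; edgeR without its legacy setting was added after seeing the data. The fits were tested on simulated counts. Figures used matplotlib 3.10.9.

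The genes and lists were chosen with earlier results of these data known. Named were the 9 genes, detected paralogs, the 3 genes with the smallest p on each side of the glucocorticoid-induced list and 1 per side of the other 3 lists (1 of these is not reported here), the 5 nearest to Sgk1, Suz12 and Cd207. Mt1, Akt1, Akt2, Hsp90aa1, Il10, Bcl6, Pdk4, markers of other cell types, other list genes whose groups did not overlap and genes with no count were named after their values were seen.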

Additional observations from a re-analysis of the deposited data

How the results depend on the processing

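Over 13 alternatives, 29 named genes with a fold change gave 376 values. Of these, 369 kept direction and side of the threshold (for Sgk1, with no test, a shift under 1 SD between replicates). A further 4 turned direction and 3 passed the threshold, all with DESeq2 (Fbxo32, Antxr2 and Serpinb9). The tally includes Sgk1 and the genes nearest to it, whose direction was set by the way they were chosen. Their kept direction is therefore no sign of stability, and the DESeq2 calls of Antxr2 and Serpinb9 are no further evidence. Fbxo32 was named for its small p in this contrast. The turns came from leaving out 1 library: Foxo1 ranged from -0.21 (without wild type replicate 2) to 1.06, Tsc22d1 from -0.058 (without cKO replicate 2) to 1.13, and, with the turn coming without wild type replicate 1, Tsc22d4 from -3.20 to 1.74 and Cebpd from -0.10 to 1.37. The edgeR count of 0 genes was 191 with DESeq2 and 1 with the replicate block (Il10), and 0 under the others. None of the 8 genes beside Sgk1 was called under any alternative, and of the paralogs and the genes in the 4 pathway lists DESeq2 called 1 (Fbxo32), besides 2 dermal macrophage and monocyte markers (Ms4a7 and Lyz2); the cause was not tested. The replicate number gave no sign of pairing: deviations from the group mean correlated at -0.03 for number 1 and -0.02 for number 2, and in the replicate block cKO replicate 3 has no partner and adds nothing. Under the replicate block 0 of the genes beside Sgk1 and 0 of the list genes were called.

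With 2 wild type libraries, 1 of them can decide a fold change, as for Foxo3 and Fkbp5. Fkbp5, Foxo3 and Ddit4 were at or near 0 in some libraries and higher in others of the same genotype. Zbtb16 had at most 4 counts. No difference in these 4 genes was therefore detectable at this depth and number of libraries. Nr3c1 also varied within cKO, with 4, 829 and 64 counts. Its log2 fold change was -1.17 without cKO replicate 1 and -3.80 without cKO replicate 2. In counts simulated at the observed dispersion, edgeR called 2% of genes at a log2 fold change of 1 and 12% at 2. It called 48% at 4 and 22% at -4. The lack of a call for Sgk3, Nr3c1, Tsc22d3, Foxo1 or a list gene therefore does not show that it was unchanged.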
